A study of Mus musculus with 2 samples.

Results

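Fos, Fosb, Fosl1, Fosl2, Jun, Junb, Jund, Egr1, Egr2 and Egr3 encode the FOS and JUN proteins of the transcription factor AP-1 and the early growth response (EGR) zinc-finger factors. The 10 genes were taken by symbol from the 54532 genes of the authors' table, and each symbol matched 1 row. They were selected on the difference between the libraries described here, with the results already known. Their own values are therefore given as a description, with no test.

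The samples were CT26 cells, a mouse colon carcinoma line. One culture received lentivirus that expresses human SOX2 and mouse Oct4 (encoded by Pou5f1), and carries the label of dedifferentiated cells. The other received lentivirus with the empty expression vector, and its genotype is given as wild type. Both cultures therefore carry lentivirus, and both grew for 4 days in RPMI 1640 with fetal bovine serum before trypsin was used to collect them and TRIzol to take total RNA. Each group holds 1 library made with a NEBNext Ultra RNA kit, so no difference below has a replicate check. Whether the transduced cells were a pool or a clone is not given in the sources used here.

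AP-1 is a dimer of basic leucine zipper (bZIP) proteins. FOS proteins bind DNA only with a partner, usually a JUN protein, whereas JUN proteins can also pair with each other. Fos, Fosb, Jun, Junb and the Egr genes are immediate early genes: growth factors, serum and stress switch them on within minutes through MAP kinases, often without new protein synthesis, and their mRNAs are usually short-lived. In carcinoma cells AP-1 is known as an effector of RAS signalling. Fosl1 is the family member best known for a lasting, ERK-dependent level in such cells. EGR proteins bind GC-rich sites, and the NAB proteins repress them.

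The bases before the start are shown for Fos, Fosb and Jun, 3 of the 4 genes at least 2-fold higher with Oct4 and SOX2. They hold the letters of short elements through which immediate early genes are known to be read. Egr1, the other of the 4, had no window in the promoter set used. Egr2 is shown by 2 stretches of 30 bases around its CArG boxes, the site of serum response factor (SRF). The sequences are from RefSeq (build GRCm38.p6) and run 5′ to 3′. They lie at chr12:85473640-85473889 (plus strand) for Fos, chr7:19310052-19310295 (minus strand) for Fosb, chr4:95052223-95052472 (minus strand) for Jun, and chr10:67537484-67537513 and chr10:67537787-67537816 (plus strand) for Egr2. Capitals mark the motifs found: TGACG and TATAAA in Fos, TGACG and GCGGGGGCG in Fosb, TGACATCA in Jun, and the CArG boxes in Egr2.
Fos: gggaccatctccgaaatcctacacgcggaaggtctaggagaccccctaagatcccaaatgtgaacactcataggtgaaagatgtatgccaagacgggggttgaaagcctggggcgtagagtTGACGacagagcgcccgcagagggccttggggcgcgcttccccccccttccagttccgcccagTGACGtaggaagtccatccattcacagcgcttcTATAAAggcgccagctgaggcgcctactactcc
Fosb: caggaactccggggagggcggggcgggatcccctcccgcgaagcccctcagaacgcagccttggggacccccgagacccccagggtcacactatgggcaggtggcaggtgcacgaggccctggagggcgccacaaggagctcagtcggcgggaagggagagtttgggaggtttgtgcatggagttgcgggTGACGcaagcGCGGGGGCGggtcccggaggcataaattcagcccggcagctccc
Jun: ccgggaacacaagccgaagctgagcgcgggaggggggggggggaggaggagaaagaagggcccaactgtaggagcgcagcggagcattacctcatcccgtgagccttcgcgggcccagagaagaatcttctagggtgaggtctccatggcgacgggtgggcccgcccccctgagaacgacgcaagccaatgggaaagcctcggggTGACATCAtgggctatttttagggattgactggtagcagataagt
Egr2, upstream CArG box: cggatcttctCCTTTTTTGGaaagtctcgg
Egr2, downstream CArG box: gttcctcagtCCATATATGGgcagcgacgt

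Windows from 250 bases before to 50 bases after the start were searched on both strands for 6 motifs: TGANTCA (the AP-1 site), TGACNTCA and the shorter TGACG (cyclic AMP response elements, bound by CREB, ATF and some AP-1 dimers), GCGNGGGCG (the EGR site), the CArG box and TATAAA. A TGACNTCA match does not contain TGACG unless its middle base is G, and none of the capitals above overlap. Fos held TGACG from bases -129 and -66 and TATAAA from base -33, counted with the start site as 0. Fosb held TGACG at -60 and an EGR site at -50, so this FOS-family gene carries the letters of the EGR site beside those of the shorter cyclic AMP element. Jun held TGACATCA at -45. Of the genes not printed, Fosl2 held an EGR site at -79 and Junb a TGACG at -106 and TATAAA at 0, and Jund had no match to any of the 6. Offsets count from the RefSeq start, which for Junb (chr8:84978748) lies upstream of the start of the deposited gene (chr8:84978718). For Fosl2 it (chr5:32136472) lies inside the deposited gene, which begins at chr5:32135801. The Egr2 starts used for the CArG boxes (from chr10:67537566) also lie inside the deposited gene, which begins at chr10:67535475. The Fosl2 EGR site and both Egr2 stretches thus fall within the deposited gene spans. Among all 32851 RefSeq windows of this length, 20.8% held TGACG, 13.6% TATAAA, 8.83% TGACNTCA, 7.81% TGANTCA, 5.55% the EGR site and 1.63% a CArG box. The Egr2 windows that hold the downstream CArG box also held TGACG. These matches describe letters only. Fosl1, Egr1 and Egr3 had no window and were not searched. Bases farther than 250 before the start were not searched for any gene, so the lack of a match does not mean that a gene lacks the element.

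The deposited levels are FPKM, fragments per kilobase of gene length as scaled by the authors to a common depth, and reads recovered from them summed to 31521115 in the Oct4 and SOX2 library and 32262408 in the empty-vector library. Pou5f1, the delivered mouse gene, was at 173 FPKM (12406 reads) with Oct4 and SOX2 and had 0 reads with empty vector. Mouse Sox2 was at 23.3 FPKM with Oct4 and SOX2 and 14.1 FPKM with empty vector, but the vector carried the human gene, whose reads may match the mouse gene only in part. Of 14 colon epithelial markers, 3 reached 1 FPKM, and the list summed to 41.7 FPKM with Oct4 and SOX2 and 32.9 FPKM with empty vector. Keratins gave most of that sum: Krt20 was at 28.3 FPKM with Oct4 and SOX2 and 14.9 FPKM with empty vector, and Krt18 at 11.3 FPKM with Oct4 and SOX2 and 15.2 FPKM with empty vector. Other defining epithelial genes were at or near 0 in both libraries: Cdh1 and Cdx1 had 0 reads in each, and Epcam had 2 reads with Oct4 and SOX2 and 1 with empty vector. Cldn3 and Cldn4 also had 0 reads with Oct4 and SOX2. Of 9 leukocyte markers only Cd68 reached 1 FPKM (list sums 4.93 FPKM with Oct4 and SOX2 and 6.35 FPKM with empty vector, with Cd3e, Adgre1 and Nkg7 among those at 0 reads in both), and none of 6 endothelial markers did (sums 0.634 FPKM with Oct4 and SOX2 and 0.430 FPKM with empty vector, with Pecam1 and Cdh5 at 0 reads in both). Of 8 fibroblast markers 4 did (sums 355 FPKM with Oct4 and SOX2 and 255 FPKM with empty vector), led by Col1a2 at 306 FPKM with Oct4 and SOX2 and 185 FPKM with empty vector. Col1a1, the next most abundant, lay the other way at 40.0 FPKM with Oct4 and SOX2 and 62.1 FPKM with empty vector, and Lum and Postn had 0 reads in both. The part of other cell types in the values below was not tested.

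Fos, Fosb, Egr1 and Jun were the higher genes with Oct4 and SOX2: Fos 43.3-fold, Fosb 8.37-fold, Egr1 5.58-fold and Jun 2.15-fold. Egr2, Egr3 and Junb were also higher, at 3.14-fold, 1.75-fold and 1.59-fold, without passing the rule used for calls. Fosl1, Fosl2 and Jund lay slightly lower, by 1.14-fold, 1.17-fold and 1.28-fold. A gene was called when it differed at least 2-fold on the log2(FPKM + 1) scale, among the 12401 genes that reached 1 FPKM in either library. All 10 genes passed that filter, Fos and Egr2 only through the Oct4 and SOX2 library. By this rule 4 of 10 were higher, against 2.42% of all measured genes, and 0 of 10 lower, against 1.85%, and 3 were at least 4-fold higher, against 0.387%. Because the genes were chosen by this difference, nothing is read from those shares. Their median log2 ratio was 0.83, against -0.01 for all measured genes.

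**Figure D1:**
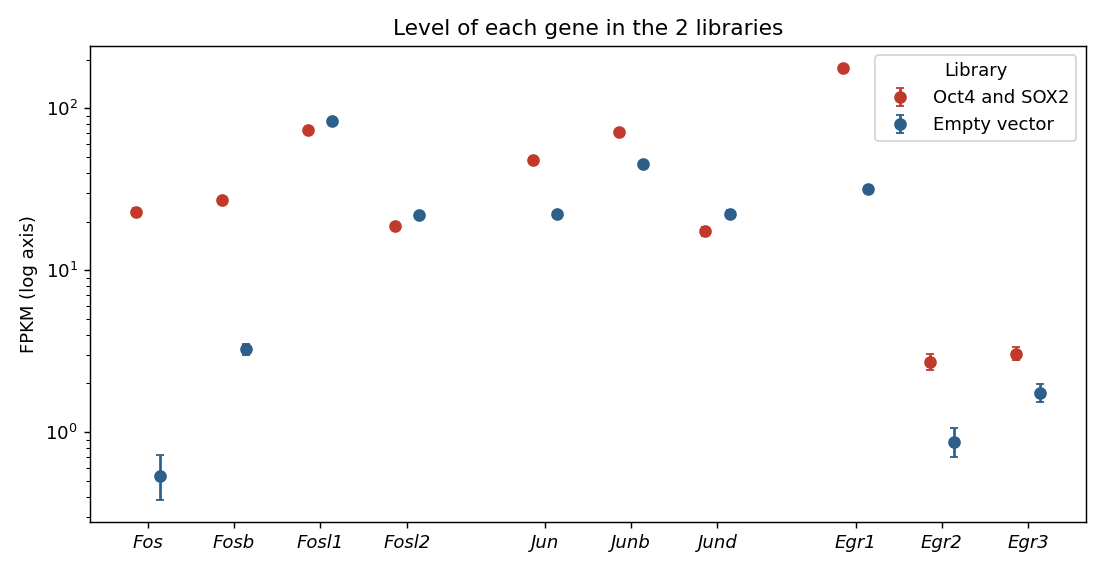
FPKM (log axis) of the 10 genes with Oct4 and SOX2 (red, left of each pair) and with empty vector (blue, right of each pair), 1 library each, with exact 95% intervals that cover counting error only. Fos stands at 23.0 FPKM with Oct4 and SOX2 against 0.533 FPKM with empty vector, whereas the points of Fosl1, Fosl2 and Jund lie close together.

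Fos, the founding member of its family (ENSMUSG00000021250, chr12:85473890-85477273, plus strand, GRCm38), was at 23.0 FPKM (1727 reads) with Oct4 and SOX2 and at 0.533 FPKM (40 reads) with empty vector. The ratio was 43.3, with an exact 95% counting interval of 31.6 to 60.8. It ranked 86 of 759 measured transcription factor genes with Oct4 and SOX2 and 754 with empty vector. Fos reached 1 FPKM only with Oct4 and SOX2. Genes below 1 FPKM in both libraries are not ranked, so the low rank with empty vector follows from the filter. On the log2(FPKM + 1) scale, which understates the change of low genes, its ratio was 3.97. Only Pou5f1 itself had a larger ratio among the 759 transcription factor genes.

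Fosb, whose product resembles FOS and also has a truncated splice form (ENSMUSG00000003545, chr7:19302696-19310051, minus strand), was at 27.2 FPKM (5416 reads) with Oct4 and SOX2 and at 3.25 FPKM (648 reads) with empty vector. The ratio was 8.37 (counting interval 7.72 to 9.10), and on the log2(FPKM + 1) scale its 2.73 was the third of the 759. Fosb was thus detected in both libraries, and with Oct4 and SOX2 its level lay a little above that of Fos.

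Fosl1 encodes FRA-1, which lacks the strong activation domain of FOS (ENSMUSG00000024912, chr19:5447703-5455945, plus strand). It was at 73.4 FPKM (3992 reads) with Oct4 and SOX2 and at 83.4 FPKM (4545 reads) with empty vector, 1.14-fold lower (counting interval 1.09 to 1.19). Fosl2, which encodes the related FRA-2 (ENSMUSG00000029135, chr5:32135801-32157842, plus strand), was at 18.9 FPKM (5821 reads) with Oct4 and SOX2 and at 22.1 FPKM (6826 reads) with empty vector, 1.17-fold lower (1.13 to 1.21). Both genes were well expressed in both libraries and differed little between them.

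Summed over the 4 genes, the FOS family was at 142.5 FPKM with Oct4 and SOX2 and 109.3 FPKM with empty vector, a ratio of 1.30 (1.27 to 1.34). The make-up of that sum differed more than its size. Fosl1 gave 51.5% of it with Oct4 and SOX2 and 76.3% with empty vector, and Fosl2 gave 13.2% with Oct4 and SOX2 and 20.2% with empty vector. Fos gave 16.2% with Oct4 and SOX2 and 0.488% with empty vector, and Fosb gave 19.1% with Oct4 and SOX2 and 2.98% with empty vector. Fosl1 was the most abundant FOS-family mRNA in both libraries, and Fos and Fosb lay above Fosl2 only with Oct4 and SOX2. Levels between genes rest on the deposited gene lengths, which for Fosb (6243 bases) and Fosl2 (9680 bases) exceed a single GENCODE transcript of 3782 and 6537 bases.

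**Figure D2:**
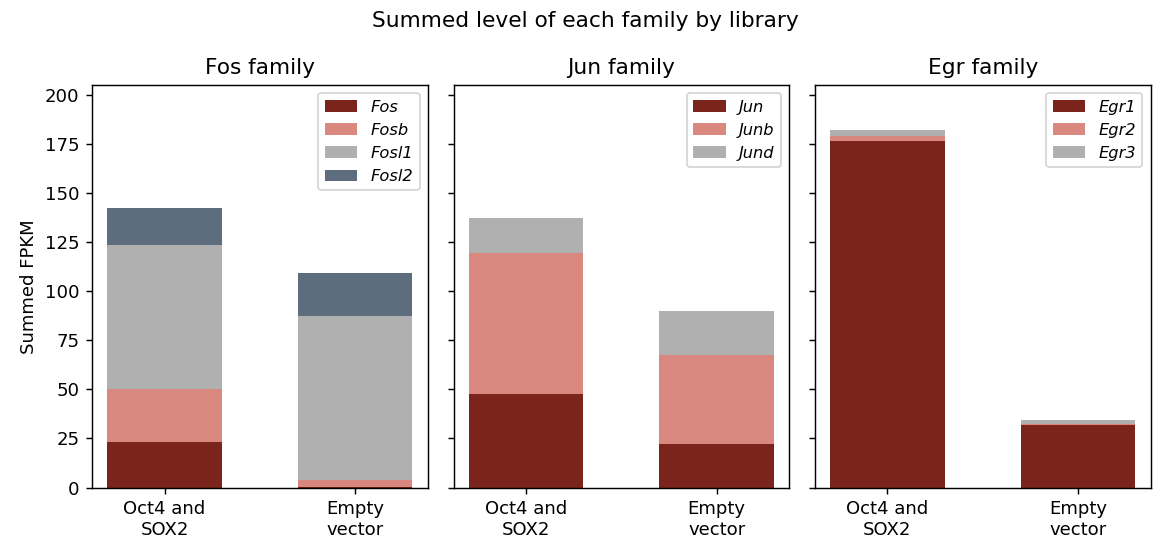
Summed FPKM of the FOS, JUN and EGR families, each with the Oct4 and SOX2 library on the left and the empty-vector library on the right, split by gene. Fosl1 fills most of the FOS bar with empty vector (76.3%) and 51.5% of it with Oct4 and SOX2, and the EGR bar is almost all Egr1 in both.

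Jun, the partner of FOS that JNK kinases phosphorylate (ENSMUSG00000052684, chr4:95049034-95052222, minus strand), was at 47.9 FPKM (4863 reads) with Oct4 and SOX2 and at 22.3 FPKM (2269 reads) with empty vector. The ratio was 2.15 (counting interval 2.04 to 2.26), just past the 2-fold rule at 1.07 on the log2 scale. The gene shares 689 bases with Junos, an antisense gene on the other strand. Junos was at 2.20 FPKM (288 reads) with Oct4 and SOX2 and at 0.586 FPKM (77 reads) with empty vector. Whether counting used strand is not given in the sources used here, so reads of Jun and of Junos in that stretch cannot be told apart.

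Junb, a JUN protein with weaker activation than JUN at many sites (ENSMUSG00000052837, chr8:84974484-84978718, minus strand), was at 71.7 FPKM (5259 reads) with Oct4 and SOX2 and at 45.2 FPKM (3317 reads) with empty vector. The ratio was 1.59 (1.52 to 1.66), short of the 2-fold rule. The deposited model (2301 bases) is longer than the single-exon GENCODE transcript of 1809 bases, and its far end shares 351 bases with Prdx2 on the other strand, which was at 58.1 FPKM with Oct4 and SOX2 and 45.5 FPKM with empty vector, 1.28-fold. Those reads cannot be told apart either.

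Jund, the JUN gene known for a steady level in resting cells (ENSMUSG00000071076, chr8:70698949-70700616, plus strand), was at 17.5 FPKM (928 reads) with Oct4 and SOX2 and at 22.3 FPKM (1187 reads) with empty vector. It was 1.28-fold lower (1.17 to 1.39). The JUN genes were thus spread on both sides of equality. Their sum was 137.1 FPKM with Oct4 and SOX2 and 89.8 FPKM with empty vector, a ratio of 1.53 (1.48 to 1.58). Jun gave 34.9% of the sum with Oct4 and SOX2 and 24.8% with empty vector. Junb gave 52.3% with Oct4 and SOX2 and 50.3% with empty vector, and Jund gave 12.7% with Oct4 and SOX2 and 24.8% with empty vector. Junb held about the same share of the pool in both libraries, and Jun and Jund differed in opposite directions.

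Egr1, the serum-inducible zinc-finger factor that gives the family its name (ENSMUSG00000038418, chr18:34859823-34864984, plus strand), was at 176 FPKM (25208 reads) with Oct4 and SOX2 and at 31.6 FPKM (4529 reads) with empty vector. The ratio was 5.58 (counting interval 5.40 to 5.76). With Oct4 and SOX2 Egr1 was the most abundant of the 10 mRNAs and ranked 7 of 759 transcription factor genes, against 62 with empty vector. Its FPKM value was then close to that of the delivered Pou5f1. The Pou5f1 value rests on the deposited gene length of 2248 bases, which need not be that of the delivered transcript, so the mRNA levels may differ.

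Egr2, also called Krox20 and known from hindbrain and myelin (ENSMUSG00000037868, chr10:67535475-67542188, plus strand), was at 2.72 FPKM (295 reads) with Oct4 and SOX2 and at 0.867 FPKM (94 reads) with empty vector. The plain ratio was 3.14 (2.48 to 4.01), but at these low levels the log2(FPKM + 1) ratio was 0.997, just under the 2-fold line. Egr3, known from muscle spindles and lymphocytes (ENSMUSG00000033730, chr14:70077203-70082614, plus strand), was at 3.06 FPKM (429 reads) with Oct4 and SOX2 and at 1.74 FPKM (245 reads) with empty vector, a ratio of 1.75 (1.5 to 2.06). Among the members nearest the 2-fold line, Jun (1.07) lay just inside and Egr2 just outside. The EGR sum was 182.2 FPKM with Oct4 and SOX2 and 34.3 FPKM with empty vector, a ratio of 5.32 (5.16 to 5.49), and Egr1 gave 96.8% of it with Oct4 and SOX2 and 92.4% with empty vector.

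**Figure D3:**
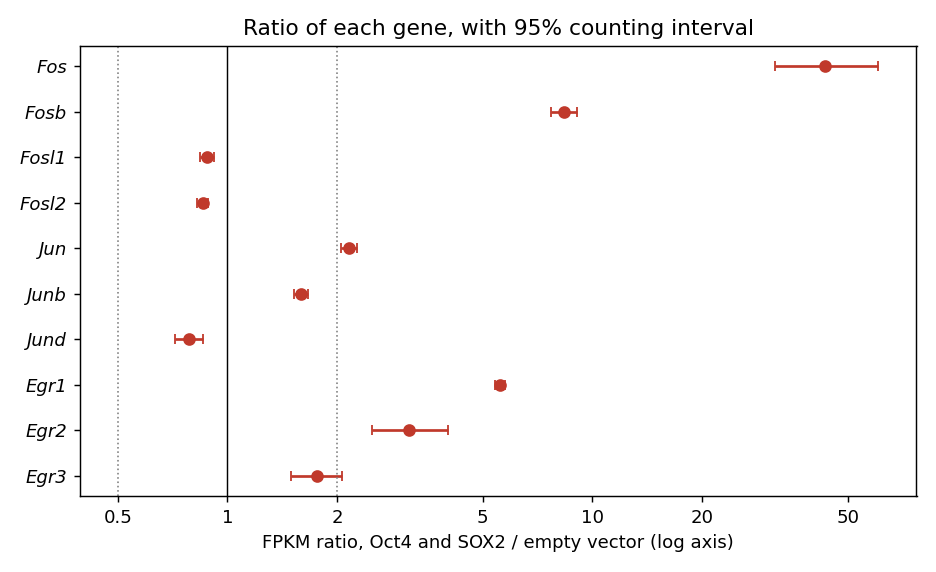
Ratio of FPKM with Oct4 and SOX2 over empty vector (log axis) for each gene, with exact 95% counting intervals from the reads of 1 library each; dotted lines mark 2-fold either way. Fos lies farthest to the right at 43.3, and Fosl1, Fosl2 and Jund lie just left of 1.

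The order of levels also differed between the libraries. With Oct4 and SOX2 it ran Egr1, Fosl1, Junb, Jun, Fosb, Fos, Fosl2, Jund, Egr3 and Egr2, and the counting intervals of 3 neighbouring pairs overlapped: Fosl1 with Junb, Fosl2 with Jund, and Egr3 with Egr2. With empty vector it ran Fosl1, Junb, Egr1, Jund, Jun, Fosl2, Fosb, Egr3, Egr2 and Fos, where Jund, Jun and Fosl2 could not be separated and neither could Egr2 and Fos. By these values Fos was the lowest of the 10 with empty vector, not separated from Egr2, and lay above 4 of the others with Oct4 and SOX2. The order rests on the deposited gene lengths, which the counting intervals do not cover. Those lengths were 2352 bases for Fos and 9680 for Fosl2, against 2108 and 6537 bases in a single GENCODE transcript. Close pairs such as Fos and Fosl2, or Fosl1 and Junb, could therefore stand otherwise with other lengths.

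Some features of structure were not used in the choice. In the 1 GENCODE transcript taken for each gene, only the JUN family had a single exon, which makes 3 of 10, against 2.10% of 10125 measured coding genes. The Egr genes have 2 exons and the FOS-family genes 4. Every one of the 10 had at least 1 ATTTA, a pentamer of the AU-rich elements known to shorten mRNA life, in its 3′ untranslated region, with 8 in Fosl2, 7 in Egr3, 4 each in Fos and Jun and 1 in Fosb. The median was 2.19 per kilobase, against 1.31 for measured coding genes. It was 1.52 for the coding genes whose untranslated region was within the members' range of length. Fosb was below all of these at 0.466. The longer TTATTTATT occurred in Fos and Fosl2, 20% of the 10, against 7.47% of measured coding genes and 8.59% of those in that range of length. Fos was the highest of the 10 ratios and Fosl2 lay below 1, so the motif occurs on both sides of equality.

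**Figure D4:**
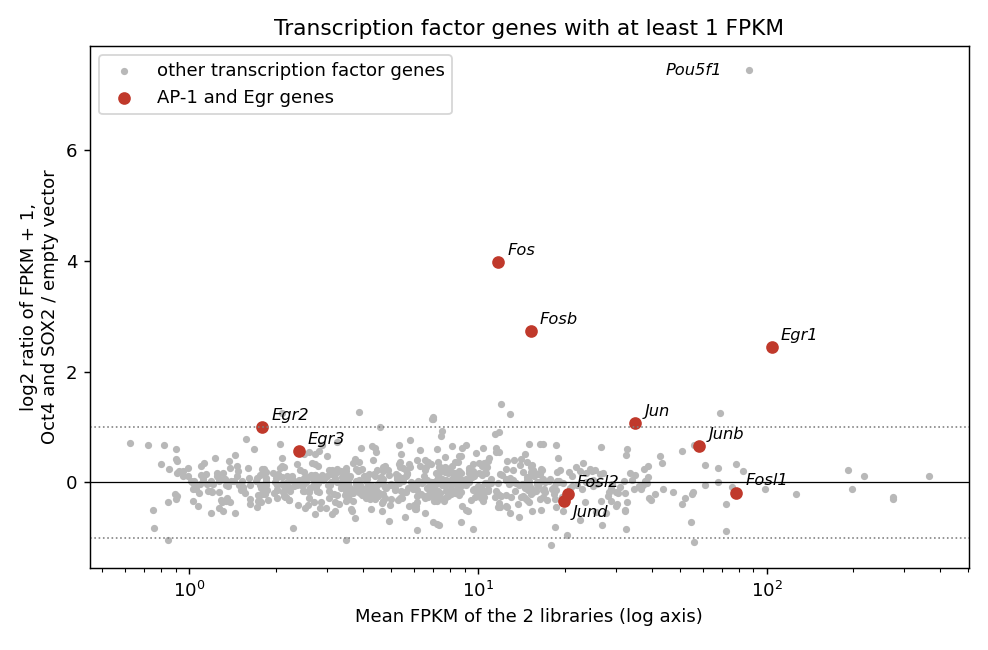
log2 ratio of FPKM + 1, Oct4 and SOX2 over empty vector, against the mean FPKM of the libraries (log axis) for the 759 measured transcription factor genes, with the 10 genes in red and dotted lines at 2-fold. Fos (3.97), Fosb (2.73) and Egr1 (2.44) lie above every other transcription factor gene except Pou5f1.

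The related and upstream genes are given by their own counts. Their lists were chosen with earlier results of these data known, so nothing is read from those counts. Among all measured genes, 2.42% were at least 2-fold higher and 1.85% at least 2-fold lower. Of 30 listed bZIP genes outside the members, such as those of the ATF, CREB, C/EBP and MAF factors, 22 were measured. The list was drawn up as bZIP partners of AP-1, but whether each product pairs with a FOS or JUN protein was not tested. Its median is therefore that of a mixed bZIP list. Of the 22, 1 was at least 2-fold higher and 1 at least 2-fold lower, and the median log2 ratio was -0.32, against -0.01 for all measured genes. The higher gene was Cebpd, a C/EBP factor of the acute-phase response, at 13.6 FPKM with Oct4 and SOX2 and 4.23 FPKM with empty vector (3.21-fold). The lower gene was Ddit3, which encodes the stress factor CHOP, at 35.8 FPKM with Oct4 and SOX2 and 76.4 FPKM with empty vector (2.13-fold lower). Of the 22, 17 were below 0 on the log2 scale. Atf3, a stress-inducible partner of JUN picked out after its values were seen, had 1 read with Oct4 and SOX2 and 18 reads with empty vector, so it was not measured at the level of Fos or Fosb.

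Of the 4 EGR relatives and cofactors, 2 were measured and neither passed 2-fold. They were the corepressor genes Nab1, at 34.0 FPKM with Oct4 and SOX2 and 30.9 FPKM with empty vector, and Nab2, at 27.7 FPKM with Oct4 and SOX2 and 24.7 FPKM with empty vector. The fourth family member, Egr4, singled out after its values were seen, had 0 reads in both. SRF and its cofactors gave 0 of 6 measured genes past 2-fold, with a median of 0.11. Srf itself was at 22.0 FPKM with Oct4 and SOX2 and 19.3 FPKM with empty vector, and its cofactor gene Elk3 at 26.7 FPKM with Oct4 and SOX2 and 22.4 FPKM with empty vector.

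The kinases above AP-1 were counted as mRNA only. Of 28 measured RAS-MAPK and JNK kinase genes 1 was at least 2-fold higher and 0 lower, with a median of 0.06. The higher gene was Rps6ka5, which encodes the histone and CREB kinase MSK1, at 3.38 FPKM (1286 reads) with Oct4 and SOX2 and 1.12 FPKM (426 reads) with empty vector, 3.02-fold. Of 15 measured genes of MAPK feedback, which report on pathway activity in many cells, none passed 2-fold, and the median was -0.01. The most expressed by the mean of the libraries were Dusp4, a phosphatase of ERK and JNK, at 54.5 FPKM with Oct4 and SOX2 and 104.6 FPKM with empty vector, and Dusp6, the ERK phosphatase, at 37.7 FPKM with Oct4 and SOX2 and 38.0 FPKM with empty vector. Dusp4 was 1.92-fold lower, close to the rule, and Dusp6 was level.

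Other immediate early genes lay on both sides of equality. Of 39 measured, 2 were at least 2-fold higher and 0 lower, where the shares among all measured genes were 2.42% and 1.85%. Of the 39, 18 lay above 0 and the median was -0.09. The higher genes were Gem and Socs3. Gem, a small GTP-binding protein of the RGK class, was at 2.45 FPKM (164 reads) with Oct4 and SOX2. With empty vector it was at 0.342 FPKM (23 reads), so it passed the filter only through the Oct4 and SOX2 library. Socs3, a feedback inhibitor of JAK signalling, was at 13.1 FPKM with Oct4 and SOX2 and 5.87 FPKM with empty vector. Trypsin release is known to induce Fos, Jun and Egr1 in many cells, and both cultures were collected with trypsin. Of 26 measured genes of a dissociation-response list without the members, which shares 13 genes with the list just given, 2 were at least 2-fold higher (Socs3 and Cebpd), 0 were lower and the median was -0.09. Whether collection had a part in the members' values was not tested. The listed genes summed to 2790 FPKM with Oct4 and SOX2 and 2960 FPKM with empty vector.

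Genes known as AP-1 targets showed a few large differences in a list of which most members stayed within 2-fold. Of 41 listed, 28 were measured, 4 were at least 2-fold higher and 0 lower, and the median was 0.17. Among all measured genes 2.42% were higher by this rule. The list was chosen with earlier results of these data known, so nothing is read from its count. Serpinb2, a plasminogen activator inhibitor, was at 15.2 FPKM (1139 reads) with Oct4 and SOX2 and 0.213 FPKM (16 reads) with empty vector, 71.3-fold (43.7 to 125). Il1rn, the interleukin-1 receptor antagonist, had 400 reads with Oct4 and SOX2 and 4 reads with empty vector. Timp1, the metalloproteinase inhibitor, was at 230 FPKM with Oct4 and SOX2 and 100 FPKM with empty vector, 2.29-fold (2.19 to 2.40). The fourth was Il6, a cytokine gene named after its values were seen, with 124 reads with Oct4 and SOX2 and 18 reads with empty vector. Of these 4, Timp1 was well expressed in both libraries. Serpinb2, Il1rn and Il6 had at most 18 reads with empty vector and passed the filter only through the Oct4 and SOX2 library.

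Of 21 measured EGR1 targets none was at least 2-fold higher or lower, and the median was 0.02. The most expressed by the mean of the libraries were the fibronectin gene Fn1, at 342 FPKM with Oct4 and SOX2 and 267 FPKM with empty vector, and the cyclin gene Ccnd1, at 182 FPKM with Oct4 and SOX2 and 142 FPKM with empty vector. Of 20 housekeeping genes 0 passed 2-fold, with a median of -0.03.

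**Figure D5:**
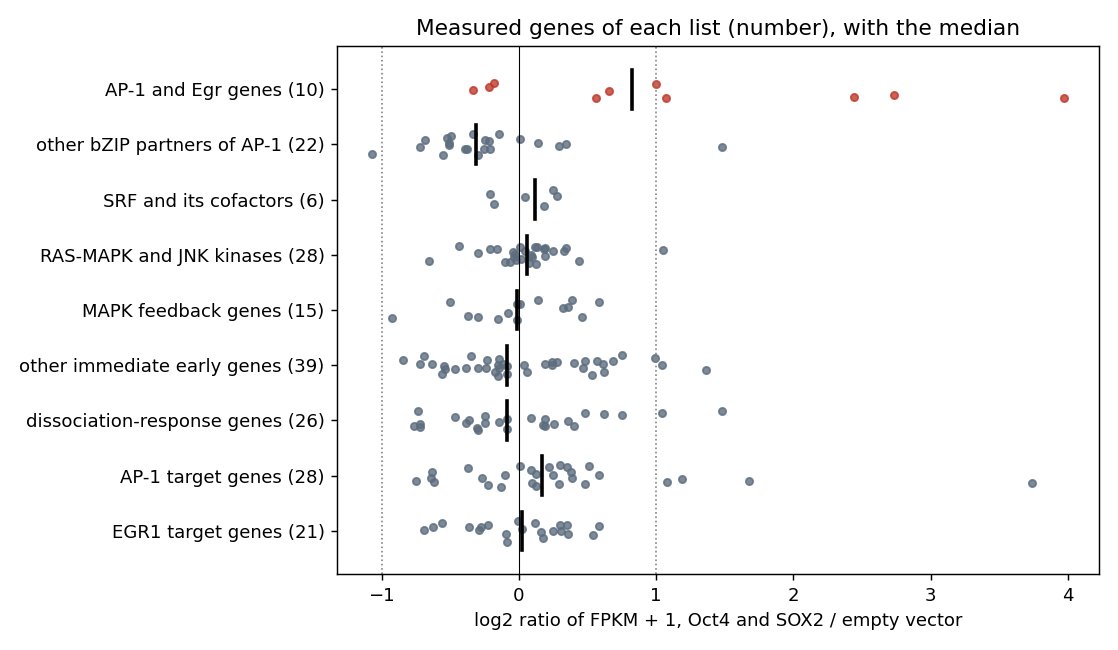
log2 ratio of FPKM + 1, Oct4 and SOX2 over empty vector, for the measured genes of each list (number in brackets), with the median as a bar and dotted lines at 2-fold. The median of the AP-1 and EGR genes is 0.83, and those of the other lists shown lie between -0.32 and 0.17.

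Among 7619 other protein-coding genes that reached 5 FPKM in either library, the 3 with the log2 ratio closest to that of Fos (3.97) were Scg5 (3.92), Kpna7 (3.82) and Spink10 (4.15). Scg5, which encodes the chaperone of proprotein convertase PC2, was at 42.1 FPKM with Oct4 and SOX2 and 1.86 FPKM with empty vector. Kpna7, an importin alpha of oocytes and early embryos, was at 13.2 FPKM with Oct4 and SOX2 and had 0 reads with empty vector. Closest to Egr1 (2.44) were Lrrn3 (2.45), Stk32a (2.43) and Cobl (2.36), the last an actin nucleator. These 3 were at 5.06 to 6.74 FPKM with Oct4 and SOX2 and at 0.125 to 0.446 FPKM with empty vector, far below Egr1 in both. Their plain FPKM ratios were 16.3 (Lrrn3), 40.5 (Stk32a) and 14.4 (Cobl), against 5.58 for Egr1. Those of Scg5 and Spink10 were 22.7 and 111, against 43.3 for Fos. The genes are thus alike only on the log2(FPKM + 1) scale, which understates the change of low genes. Each of these neighbours reached 5 FPKM only with Oct4 and SOX2. Likeness here rests on 1 ratio between 2 libraries.

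With 1 library a group, the intervals cover counting error only and the difference between cultures cannot be told apart from the difference between treatments. A bulk value also does not show whether more cells held a transcript or each cell held more of it.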

How the data were processed

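Bulk RNA-seq of 2 CT26 cultures was analysed, 1 library per group, with groups taken from the labels' genotype and treatment. The authors deposited FPKM values per gene in 1 table, which also lists each gene's coordinates and length. Per the submitters' processing notes, the tools were CASAVA, HISAT2 and featureCounts 1.5.0-p3, with the build GRCm38. How FPKM was computed was not given in the sources used here, nor was the annotation release, the use of strand or the treatment of reads with several matches.

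FPKM multiplied by gene length fell on whole multiples of 1 read for 100% of values, within 0.001 of a read, which gave 31521115 reads (Oct4 and SOX2) and 32262408 reads (empty vector). Recovered reads served for counting intervals: exact conditional binomial 95% intervals for ratios, exact Poisson 95% intervals for levels, and delta-method intervals for family sums. Reads were also used to choose between rows that share a symbol and for the alternative scalings by read totals. The differences are log2(FPKM + 1), called at 2-fold among genes that reached 1 FPKM in either library. No test across samples was possible. Where 2 rows share a symbol, the row with more reads was used. Calculations were checked on simulated data with scipy 1.17.1 and numpy 2.4.6 under Python 3.11.15; pandas 2.3.3 and matplotlib 3.10.9 handled tables and figures.

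The members and the 14 gene lists were chosen with earlier results of these data known. Named genes were all members, up to 3 genes per direction past 2-fold in each list or else its 2 most expressed by mean FPKM, and the 3 genes nearest in ratio to Fos and to Egr1. Marker and housekeeping lists were exempt from naming by that rule. Promoter windows came from RefSeq (GRCm38.p6) and covered 7 of 10 members. Exons and untranslated regions came from GENCODE on the same build. Other pseudocounts, filters and scalings were tried as alternatives.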

Additional observations from a re-analysis of the deposited data

How the results depend on the processing

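Of the 10 genes, 4 were at least 2-fold higher with the values as reported and 0 lower. The count was 5, with Egr2 added, at a pseudocount of 0.1, under plain read totals, housekeeping scaling, totals without the 50 highest genes and median centring, and where the counting interval had to lie beyond 2-fold. It was 3, without Jun, at a pseudocount of 5, and 4 with no filter or a filter of 5 FPKM. Those filter settings could not change the count. A gene below 1 FPKM in both libraries cannot reach 2-fold on the log2(FPKM + 1) scale, and the 4 called genes all exceed 5 FPKM. Egr2 and Egr3 did not pass the filter of 5 FPKM. Where measured, none of the 10 was at least 2-fold lower, or changed sign, under any of these settings. The log2 ratio of Fos ranged from 2.34 (pseudocount 5) to 5.19 (pseudocount 0.1). Over all genes, 300 were higher and 230 lower as reported. These counts were 520 and 459 at a pseudocount of 0.1, 75 and 56 at a pseudocount of 5, and 145 and 121 with a filter of 5 FPKM, which tests fewer genes. The family ratios stayed within their counting intervals under other scalings: 1.33 to 1.34 for FOS, 1.56 to 1.57 for JUN and 5.43 to 5.46 for EGR. No paired analysis was possible because each group holds 1 library and the results come from no test, and for the same reason no library could be left out. Depth limits Fos with empty vector (40 reads) and Egr2 (94 reads).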

Other observations

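Among the 749 measured transcription factor genes outside the AP-1 and EGR members, 10 were at least 2-fold higher with Oct4 and SOX2 and 4 at least 2-fold lower. Among all measured genes 2.42% were higher and 1.85% lower by the same rule, so neither count is above the general share. The genes are named here after their values were seen. Beside Pou5f1, the higher ones were Arid5b, Gm15446, Twist1, Gm2004, Nr2f1, Zfp932, Mxd3, Zbtb20 and Hivep2. Twist1, a regulator of mesenchymal state, was the most abundant of these 9, at 97.6 FPKM with Oct4 and SOX2 and 40.1 FPKM with empty vector, a ratio of 2.43 (2.31 to 2.56). Arid5b, a DNA-binding cofactor of a histone demethylase, was at 17.9 FPKM with Oct4 and SOX2 and 6.08 FPKM with empty vector. The lower ones were Tulp1, Id3, Ddit3 and Ets2. Ets2, a RAS-responsive ETS factor known to work with AP-1 at shared sites, was at 10.9 FPKM with Oct4 and SOX2 and 24.8 FPKM with empty vector, 2.28-fold lower (2.16 to 2.40). Id3, an inhibitor of bHLH factors and a target of BMP signalling, was at 1.96 FPKM with Oct4 and SOX2 and 5.06 FPKM with empty vector, 2.58-fold lower (2.06 to 3.23).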
